A study of Mus musculus with 6 samples.

Results

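The ion channel genes described here were chosen by name, as the rows of the expression table whose symbol begins with that of a potassium (Kcn), voltage-gated calcium (Cacn) or sodium (Scn), chloride (Clcn), anoctamin (Ano), transient receptor potential (Trpc, Trpm, Trpv), Piezo, LRRC8, HCN, TMC, acid-sensing (Asic) or CFTR channel. *Kcnj10*, *Kcnj16*, *Trpm6*, *Trpm7* and *Kcnq1ot1* were left out by the same rule. It gave 98 of the 20624 genes of the table, with 0 repeated symbols. The annotation used here holds 201 genes with such names, and the rest of them were not analysed here, so no level is read for them. RNA was sequenced, after depletion of ribosomal RNA, from mDCT15 cells of both genotypes, 3 libraries of Pkd1-/- and 3 of wild type cells. mDCT15 is a mouse line from the distal convoluted tubule, cultured in medium with serum, and the labels name no further treatment. The knockout was made by CRISPR/Cas9 editing, while the genotype label of those samples reads knockdown, and the methods do not say whether the line is 1 clone.

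The table gives 1 level for each gene, the authors' mean of the normalized counts over the samples of both genotypes. It gives no value for a single sample or for a single genotype. A level can therefore come from either genotype or from both, no spread between samples can be stated, and the order of genes with close levels cannot be told apart from error. The table also holds the authors' own comparison of the genotypes, which was not used, so no difference between Pkd1-/- and wild type cells is given. Since a level in bulk RNA is an average, fewer cells with a transcript and less transcript per cell cannot be told apart. The means add up to 16746088 over all genes, of which the ion channel genes hold 0.240%. *Gm26917* alone holds 6.29%. The lowest mean in the table was 0.618, which over 6 libraries comes to 3.71 normalized counts. The depth of each sample is unknown, and no interval is given.

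Ion channels are membrane proteins that let ions cross along their gradients. In the distal nephron they set the membrane voltage, recycle potassium and chloride, and sense stretch and flow. Several ClC and anoctamin proteins work instead in endosomes, lysosomes or the lipid bilayer itself. In polycystic kidney disease, chloride channels are studied for the fluid secretion that fills cysts, and polycystin-2, the partner of the *Pkd1* product, is itself a channel of the wider TRP group. *Pkd1* had a mean normalized count of 3175 and *Pkd2* of 4723, which over both genotypes does not check the knockout.

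The markers of the labelled cell type were present in part. Of the 9 distal convoluted tubule markers, 5 had a row in the table and 4 had a mean of at least 10. *Kcnj16*, a subunit of the basolateral potassium channel, had a mean of 428, the kinase gene *Wnk4* of 413, *Kcnj10* of 38.3, the magnesium channel gene *Trpm6* of 29.6 and *Klhl3* of 5.70. No row was found for *Slc12a3*, the sodium-chloride cotransporter that defines the segment, nor for *Pvalb*, *Calb1* and *Sall3*, so these were not analysed here. Among the markers of other cell types, *Lrp2*, the endocytic receptor megalin of the proximal tubule, had a mean of 8826, while *Slc34a1* (2.04) and *Slc5a2* (2.77) of the same segment were near the lowest levels. Of the 4 listed epithelial genes, 2 had a row, *Epcam* with a mean of 115 and *Krt8* with 0.980. No row was found for *Cdh1* and *Krt18*, so these were not analysed here. The fibroblast list held *Col1a1* at 201, *Col3a1* at 2.44 and *Pdgfrb* at 4.48. The collecting duct list was limited to *Aqp3* (1.95) and *Scnn1g* (0.618), the endothelial list to *Pecam1* (4.68) and the immune list to *Ptprc* (5.36). *Syt1* (52.0) of the neuronal list and *Ryr1* (51.7) and *Acta1* (7.0) of the muscle list also had a row. The thick ascending limb, intercalated cell and podocyte lists had 0 genes with a row.

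As a set, the ion channel genes were counted less than most protein-coding genes. Their median mean normalized count was 24.8, with the middle of the range from 3.45 (25th percentile) to 274 (75th percentile), and the highest was 4625. The median of all genes in the table was 104.5 and that of its protein-coding genes 474. Per kilobase of the longest annotated transcript, the scale on which genes are compared with each other here, the medians were 5.06, 39.3 and 110. By the mean not divided by length, the median ion channel gene stood at the 41.0th percentile of all genes. It stood at the 18.9th percentile of the protein-coding genes, which 97 of the 98 genes are. A mean of at least 10 was reached by 61 genes (62.2%), against 66.5% of all genes and 85.3% of protein-coding genes. A mean of at least 100 was reached by 33 (33.7%), against 50.3% and 72.9%. Just above the limit of 10 was *Ano1*, the calcium-activated chloride channel gene, at 11.5, and just under it *Tmc7* at 8.67.

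**Figure D1:**
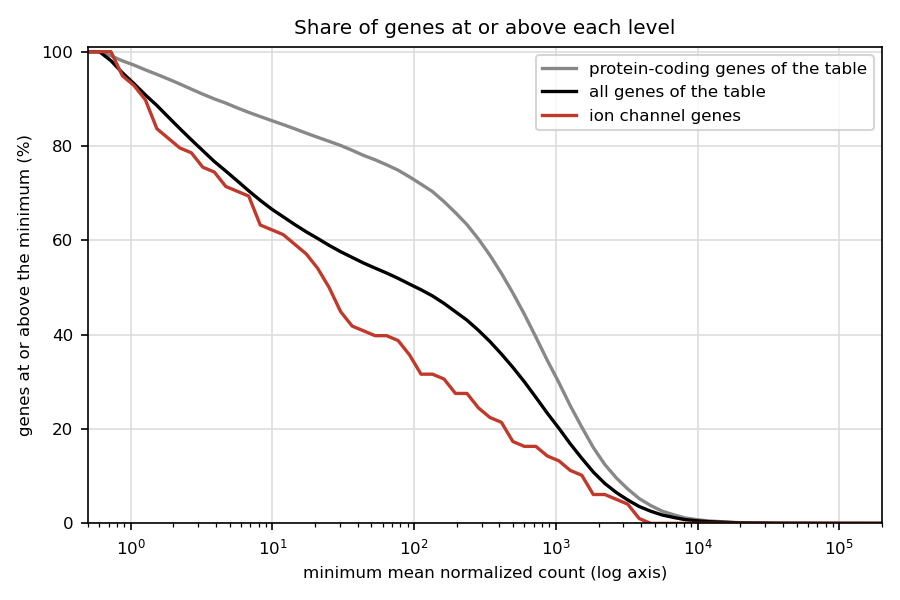
Percent of genes (vertical axis) whose mean normalized count over all samples reaches the minimum on the horizontal axis (log scale), for the 98 ion channel genes, all 20624 genes and the 13862 protein-coding genes of the table. At a minimum of 100 the line of the ion channel genes is at 33.7% and that of the protein-coding genes at 72.9%.

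The levels were unequal between kinds of channel. Of the 98 genes, 94 encode channel subunits, 80 of them pore-forming or channel-like proteins and 14 auxiliary subunits. The anion channel and anoctamin genes (Clcn, Ano, Lrrc8 and *Cftr*) numbered 19, and 16 of these (84.2%) had a mean of at least 100. Over all genes that share was 50.3%, and over protein-coding genes 72.9%. The median of the 19 genes was 827, at the 64.1th percentile of the protein-coding genes. Of the 27 potassium channel pore genes, 3 (11.1%) reached 100, with a median of 16.3, and 0 reached 500. Among the 11 Trp genes 3 reached 100, among the 10 calcium and sodium pore genes 2, among the 7 Piezo and Tmc genes 2, and among the 6 Hcn and Asic genes 1. Per kilobase, the anion channel and anoctamin genes held 56.7% of the summed level of all channel subunit genes, and the potassium pore genes 4.08%.

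**Figure D2:**
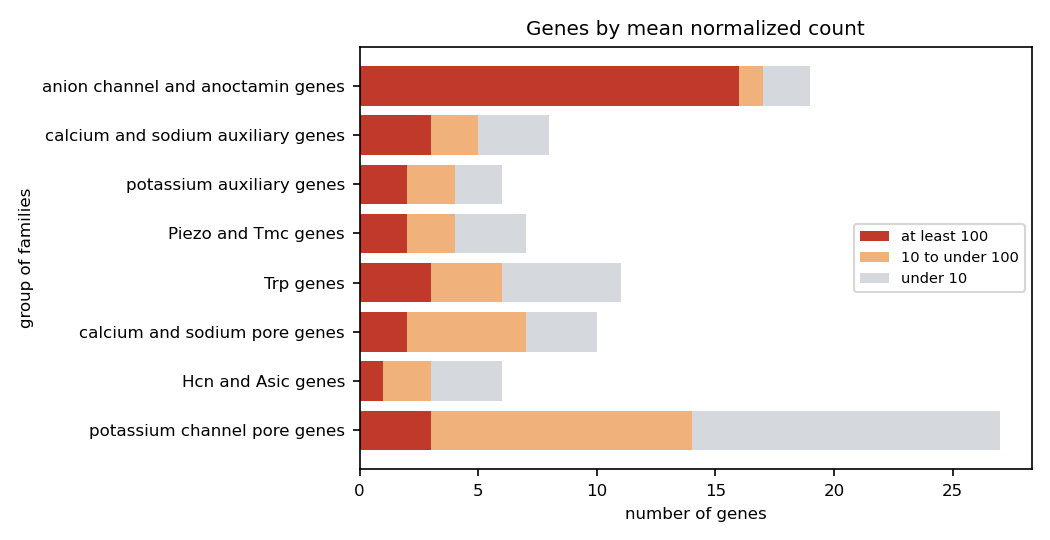
Number of channel subunit genes (horizontal axis) in each group of families, split by mean normalized count over all samples into at least 100, 10 to under 100, and under 10. The anion channel and anoctamin bar is mostly in the highest class (16 of 19 genes), and the potassium pore bar has 3 of 27 genes there. Of the protein-coding genes of the table, 72.9% reach that class.

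The ClC family covers plasma membrane chloride channels and the chloride/proton exchangers of endosomes and lysosomes. *Clcn5* (ENSMUSG00000004317, chrX:7019726-7185661 in GRCm39, minus strand) had the highest mean of all the ion channel genes, 4625, or 500.2 per kilobase. Its product supports the acidification of endosomes and is mutated in Dent disease. By the mean, *Clcn5* was at the 96.1th percentile of the protein-coding genes, and per kilobase at the 87.7th. The other vesicular exchangers followed, with 326 per kilobase for *Clcn7* (mean 1386), 310 for *Clcn6* (mean 1627), 308 for *Clcn3* (mean 2523) and 164 for *Clcn4* (mean 1143). The first 3 of these lie too close to be put in an order without a measure of error. *Ostm1*, the beta subunit that stabilizes the lysosomal *Clcn7* product, had a mean of 1210 and 276 per kilobase. The genes of the plasma membrane channels were lower, with 64.6 per kilobase for *Clcn2* (mean 280) and 1.46 for *Clcn1*, known from skeletal muscle (mean 6.84). The partners of plasma membrane ClC channels were counted little too, with means of 1.12 for *Hepacam* (*Clcn2*) and 2.02 for *Bsnd*, the barttin gene of the kidney ClC-K channels.

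Among the anoctamins, *Ano6* (ENSMUSG00000064210, chr15:95688613-95873353, plus strand) had a mean of 3637. Its product is a calcium-dependent phospholipid scramblase that also conducts ions. Its 622 per kilobase was the highest level of a channel subunit gene on this scale. Divided instead by the union of its exons, which is longer, *Ano6* ranked 8. *Ano8*, an endoplasmic reticulum tether, had 158 per kilobase (mean 827), *Ano10* 136 (mean 577) and *Ano5*, known from muscle, 45.5 (mean 388). *Ano1* and *Ano9* were at 2.43 and 0.350 per kilobase (means 11.5 and 1.26). Thus *Ano1*, the anoctamin best known as a chloride channel, was among the least counted of the 6 anoctamin genes with a row. The annotation holds 10 protein-coding Ano genes, and the rest were not analysed here.

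All 5 genes of the volume-regulated anion channel had a mean of at least 100, a level that 72.9% of the protein-coding genes reached. This channel opens when cells swell, is built with LRRC8A as the obligatory subunit, and takes its conductance from the other LRRC8 proteins. *Lrrc8b* had the highest level, 254 per kilobase (mean 1731). *Lrrc8d* was at 216 (mean 1241) and *Lrrc8c* at 118 (mean 904), but this order turned to 87.9 and 107 per kilobase of the union of exons. *Lrrc8e* was at 96.3 and the obligatory *Lrrc8a* at 69.6 per kilobase, while their means (414 and 436) had the other order. Of the 7547 exon bases of *Lrrc8a*, 2855 are shared with *Gm28035* on the same strand, and reads there may not have been counted for either gene. *Lrrc8b*, *Lrrc8c* and *Lrrc8d* lie in a row on the plus strand of chromosome 5, with gaps of 28.6 kb and 86.9 kb. *Cftr*, the cAMP-regulated chloride channel studied for cyst fluid secretion, had a mean of 257 and 40.1 per kilobase, in the lower part of the protein-coding genes (38.1th percentile of the means).

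The mechanically activated channel gene *Piezo1* (ENSMUSG00000014444, chr8:123208437-123278072, minus strand) had a mean of 3548 and 431 per kilobase, and *Piezo2*, best known from sensory neurons, had a mean of 6.92 and 0.645 per kilobase. *Mdfic*, whose product binds Piezo channels, had a mean of 1368 and its relative *Mdfi* of 14.8. Of the exon bases of *Piezo1*, 39.5% are overlapped by *Ctu2* and any other gene on the opposite strand. Reads of these genes could be mixed unless the counting used strand. The methods state default counting parameters, and which strand was counted was not settled here. Among the Tmc genes, *Tmc6*, an endoplasmic reticulum protein gene, led with 90.7 per kilobase and a mean of 436. Its neighbour *Tmc8*, whose product forms a complex with that of *Tmc6*, had a mean of 12.5, although both genes lie head to head on opposite strands of chromosome 11 and share 179 bases at their starts. Per kilobase they were 25.4-fold apart. *Tmc4* was at 14.9 and *Tmc3* at 1.04. Of the listed partners of the sensory Tmc channels, *Cib2* had a mean of 377 and *Tmie* of 58.7, and no row was found for *Lhfpl5* and *Cib3*.

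The Trp genes chosen by the rule were led by *Trpv4* (ENSMUSG00000014158, chr5:114760209-114796914, minus strand), with a mean of 1652 and 380 per kilobase. It is an osmotically and mechanically sensitive calcium-permeable channel gene of the renal epithelium. *Trpv2* and *Trpv3* were far below it, at 24.97 and 0.252 per kilobase (means 91.7 and 1.47). *Trpm4*, the calcium-activated channel for monovalent cations, had a mean of 474 and 58.6 per kilobase. The other Trpm members chosen by the rule were each under 2 per kilobase. Their means were 21.9 for *Trpm3*, 7.49 for *Trpm5*, 1.52 for *Trpm1*, 1.14 for *Trpm2* and 0.841 for the cold sensor gene *Trpm8*. *Trpm7* and *Trpm6*, which the rule leaves out, had 284 and 4.38 per kilobase (means 2026 and 29.6). In the Trpc family, *Trpc1*, which can assemble with other TRP subunits, had a mean of 108 and 23.0 per kilobase.

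Each voltage-gated calcium channel family with genes in the table had 1 gene well above the rest. Of the 4 annotated protein-coding Cacna2d genes 0 had a row, so their levels were not analysed here. *Cacna1g* (ENSMUSG00000020866, chr11:94299217-94365230, minus strand), the pore gene of the T-type channel Cav3.1, had a mean of 3123 and 359 per kilobase. The pore genes of the high-voltage-activated channels had 9.25 (*Cacna1a*, mean 88.2), 7.70 (*Cacna1b*, mean 75.6) and 2.00 per kilobase (*Cacna1c*, mean 26.3), and *Cacna1i*, of another T-type channel, 0.0780 (mean 0.763). The beta subunits serve the high-voltage-activated channels, whereas T-type pores conduct without them. *Cacnb3* nevertheless had 467 per kilobase (mean 1624), against 9.25 per kilobase for *Cacna1a*, the highest of the 3 high-voltage-activated pore genes with a row. *Cacnb1* had a mean of 172, *Cacnb4* of 31.7 and *Cacnb2* of 1.39. *Cacng7* was at 80.2 per kilobase (mean 253) and its neighbour *Cacng8*, 22.5 kb away on the same strand of chromosome 7, at 2.73 (mean 6.85). *Cacng4* had a mean of 12.6. The adaptors of the Stac family, which bind calcium channel pores, had means of 20.1 (*Stac2*), 14.9 (*Stac3*) and 6.74 (*Stac*).

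Of the voltage-gated sodium channel pore genes, *Scn2a*, *Scn8a*, *Scn1a* and *Scn4a* were each under 3 per kilobase (means 27.1, 17.5, 2.84 and 1.12). *Nalcn*, the sodium leak channel gene, had a mean of 2.93. Of the epithelial sodium channel of the distal nephron, which the rule does not take in, *Scnn1a* had a mean of 54.1 and *Scnn1g* of 0.618. No row was found for its listed subunit gene *Scnn1b*. Among the hyperpolarization-activated genes, *Hcn2* had 51.4 per kilobase (mean 182) and *Hcn3* 12.2 (mean 49.2), while *Hcn4* had a mean of 1.87. *Asic1* was at 26.9 and *Asic2* at 1.51.

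Potassium channel pore genes were many but low. The highest of those chosen by the rule were *Kcnk1*, the 2-pore domain channel gene TWIK-1, with 67.9 per kilobase (mean 172), and *Kcnn1*, the small-conductance calcium-activated channel gene, with 61.4 (mean 300.4). Of the inward rectifier genes, the highest left by the rule were *Kcnj4* and *Kcnj2*, with 28.7 and 4.26 per kilobase (means 95.8 and 23.3). *Kcnj16* and *Kcnj10*, which the rule leaves out, had 103 and 7.07 per kilobase. *Kcnh3* (94.7), *Kcnk10* (91.5), *Kcnd1* (43.0), *Kcnh2* (35.0), *Kcnc2* (27.5), *Kcnn3* (17.4) and *Kcnma1* (16.3), the large-conductance BK channel gene, had means between 10 and 100, as did *Kcnk2* (22.4), the mechanosensitive TREK-1 gene, and *Kcnk5* (20.01), the TASK-2 gene. *Kcnf1* (7.37), *Kcng3* (3.99) and *Kcnt1* (1.39) were under 10. So were the inward rectifier genes *Kcnj14* (7.49), *Kcnj13* (1.71), *Kcnj11* (0.946) and *Kcnj12* (0.749, the lowest of the ion channel genes). *Kcnn4*, the gene of the intermediate-conductance calcium-activated channel, had a mean of 1.63. The last genes of the Kcnh and Kcnk families were *Kcnh4* (2.25), *Kcnh8* (0.854), *Kcnk7* (1.32) and *Kcnk4* (0.807).

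Among the auxiliary potassium channel genes, *Kcnab2*, the Kv beta-2 gene whose product binds the Kv1 pores, had a mean of 840 and 167 per kilobase, higher than any potassium pore gene chosen by the rule, and *Kcnab3* a mean of 143. Of the 8 annotated protein-coding Kv1 (Kcna) genes 0 had a row in the table, so their levels were not analysed here. *Kcnmb4*, the neuronal BK beta subunit gene, had 13.2 per kilobase against 1.34 for *Kcnma1*. *Kcnip3* (30.2), *Kcnip2* (3.94) and *Kcne3* (3.18) were counted little. Of the 27 listed partner genes of the channels, 14 had a row, 9 had a mean of at least 10 and 4 of at least 100, the latter being *Mdfic*, *Ostm1*, *Amigo1* and *Cib2*.

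**Figure D3:**
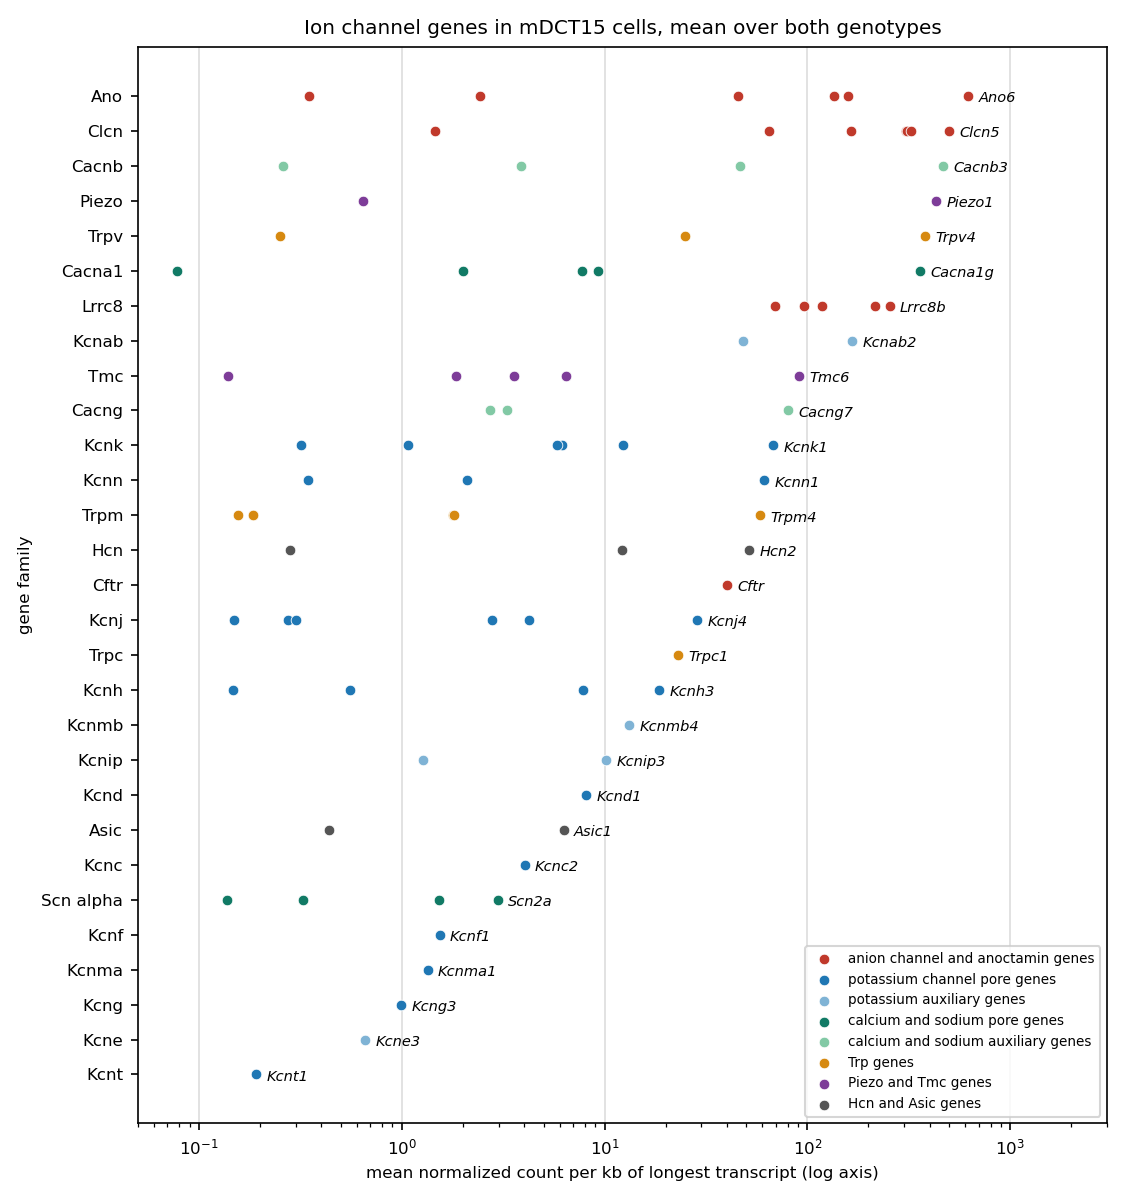
Levels of 88 of the 94 channel subunit genes, as mean normalized count over all samples per kilobase of the longest annotated transcript (horizontal axis, log scale), in rows by gene family. Each point is a gene, colours mark the groups of families, and the highest plotted gene of each family is named. *Ano6* (622) and *Clcn5* (500.2) stand highest, while the Cacna1 genes run from 0.0780 to 359.

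In 4 cases the name chosen by the rule does not stand for a channel subunit. *Trpc4ap*, the gene of a TRPC4-associated protein that serves as a ubiquitin ligase adaptor, had a mean of 3573 and 848 per kilobase. That is above every channel subunit gene on this scale, but *Clcn5* was higher by the mean, by the union of exons and by the coding length. *Kcnrg*, a regulator of potassium channels, had a mean of 4.38. The opposite-strand genes *Kcnmb4os2* and *Trpc5os* were at 3.28 and 3.13. Of the exon bases of *Kcnmb4os2*, 65.6% overlap genes on the other strand, among them *Kcnmb4* with a mean of 34.6. Beyond these, exons of 17 of the 98 genes, *Kcnmb4os2* included, are overlapped on the other strand by a protein-coding gene, among them *Clcn2* (27.9% of its exon bases), *Hcn3* (25%) and *Ano8* (15.5%), counting all overlapping genes.

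The rule used only names, so the sequence before each gene could be set beside its level. Many mammalian start sites lie in stretches rich in the dinucleotide CpG, a feature of broadly active genes. In the 250 bases before the start of the canonical GENCODE transcript in GRCm39, a window was counted as CpG-rich with at least 50% G and C and at least 0.6 of the CpG number expected from its base content. Of the ion channel genes with a mean of at least 100, 18 of 33 (54.5%) had such a window, against 57.0% of 10078 other protein-coding genes at that level. The share was 12 of 28 (42.9%) for those from 10 to under 100, against 31.9% of 1688 other genes. Under 10 it was 8 of 36 (22.2%), against 18.9% of 1999. Across the 97 protein-coding ion channel genes Spearman's rho between the mean and the CpG ratio was 0.38, and across the 13765 other protein-coding genes it was also 0.38. These are descriptions over genes, which share the same libraries and are not independent replicates.

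The 4 windows below, picked after their values were seen, are those of a gene with a high and a gene with a low mean from each of the Clcn and Cacna1 families. In both pairs the gene with the higher mean has the higher CpG ratio, but the window of *Clcn5* is not CpG-rich at a high mean and that of *Cacna1i* is CpG-rich at a low one. Each is written 5′ to 3′ on the strand of its gene, read from the GRCm39 genome, with each CpG in capitals. The windows of *Clcn5* and *Clcn1* hold 7 and 2 CpG, and neither is CpG-rich, while the means are 4625 and 6.84. The windows of the T-type genes *Cacna1g* and *Cacna1i* hold 18 and 16 CpG and both are CpG-rich, while the means are 3123 and 0.763.
Clcn5 (chrX:7185662-7185911, minus strand): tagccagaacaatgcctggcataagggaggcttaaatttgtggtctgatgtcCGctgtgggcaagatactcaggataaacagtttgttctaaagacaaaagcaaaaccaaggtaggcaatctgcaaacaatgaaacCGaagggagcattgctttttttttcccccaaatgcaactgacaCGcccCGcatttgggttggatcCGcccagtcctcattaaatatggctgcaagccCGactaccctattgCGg
Clcn1 (chr6:42263345-42263594, plus strand): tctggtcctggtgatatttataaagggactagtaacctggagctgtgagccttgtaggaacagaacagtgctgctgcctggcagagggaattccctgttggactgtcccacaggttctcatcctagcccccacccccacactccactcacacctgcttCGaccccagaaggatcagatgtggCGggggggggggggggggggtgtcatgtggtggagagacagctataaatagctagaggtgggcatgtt
Cacna1g (chr11:94365231-94365480, minus strand): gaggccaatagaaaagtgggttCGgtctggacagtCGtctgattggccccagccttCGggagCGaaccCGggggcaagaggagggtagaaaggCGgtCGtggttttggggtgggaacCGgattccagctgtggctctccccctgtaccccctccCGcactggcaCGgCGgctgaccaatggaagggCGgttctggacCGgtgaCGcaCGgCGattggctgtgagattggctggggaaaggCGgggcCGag
Cacna1i (chr15:80171186-80171435, plus strand): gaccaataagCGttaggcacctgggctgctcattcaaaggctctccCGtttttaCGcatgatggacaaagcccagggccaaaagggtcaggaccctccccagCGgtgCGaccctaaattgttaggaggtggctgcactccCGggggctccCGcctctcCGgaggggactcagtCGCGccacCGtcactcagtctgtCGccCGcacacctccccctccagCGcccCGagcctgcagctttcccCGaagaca

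**Figure D4:**
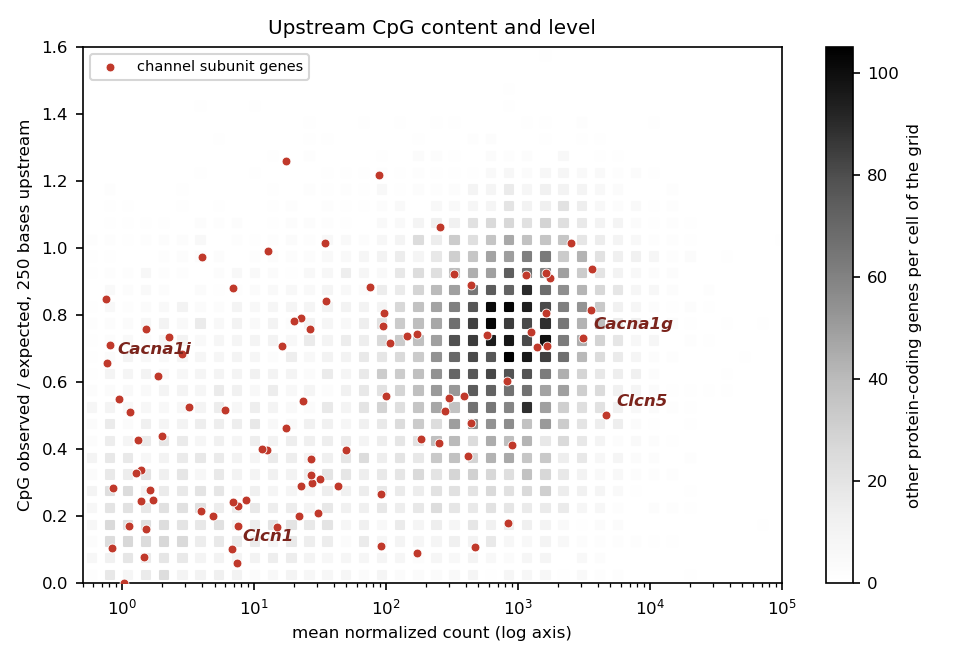
Ratio of observed to expected CpG in the 250 bases upstream of each gene (vertical axis) against its mean normalized count over all samples (horizontal axis, log scale). Red points are the channel subunit genes and the grey shade gives the number of other protein-coding genes in each cell of a grid. *Cacna1g* (0.73) and *Cacna1i* (0.66) have close CpG ratios at means of 3123 and 0.763.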

How the data were processed

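RNA was sequenced from 3 Pkd1-/- and 3 wild type mDCT15 samples, grouped by their titles. According to the submitters' processing notes and the methods, the authors used Trim Galore 0.4.5 for trimming, STAR 2.7.5a for mapping to GRCm39, HTSeq 0.11.0 for counts per gene and DESeq2 1.22.0 in R 3.5.3 for normalization. The deposited signal is the mean over all samples of the gene counts divided by each library's size factor. The deposited table also holds columns of the authors' own comparison (a fold change, its standard error, a test statistic and p-values), which were not used. It holds no value per sample, so the planned test of the genotypes was not run, and 0 columns of single samples were left out. The methods state a cutoff of at least 5 counts per sample and gene, which the table does not meet, since 1257 of its genes have a mean under 1.

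Each mean was divided by the length of the longest transcript in GENCODE vM39 (GRCm39), in which 20122 (97.6%) of the identifiers and all 98 ion channel genes were found. The RefSeq promoter table, on another build, was not used, and protein sequences were not analysed here. Percentiles count the share of genes with a lower mean, or with a lower level per kilobase where so stated. The lists and members were chosen with earlier results of these data known. Named are the 2 highest genes per kilobase of each of 31 families, those with a mean of at least 500, those around 10, those that are not channel subunits, and the lists of partners and cell type markers, with other members added after their values were seen. By name, 6 of the members are not reported here, though all 98 enter the counts, medians and shares. The functions were tested on simulated data. Alternatives were other minimums, other lengths and another background. Computation was done in Python 3.11.15 with pandas 2.3.3, numpy 2.4.6 and scipy 1.17.1, and plots were drawn with matplotlib 3.10.9.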

Additional observations from a re-analysis of the deposited data

How the results depend on the processing

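The position of the ion channel genes depended on the genes they were set beside. Their median was at the 41.0th percentile of all genes and at the 18.9th percentile of the protein-coding genes. The other results moved little. At a mean of at least 10 there were 61 genes, which became 69 at a minimum of 5 and 54 at 20. Without the genes that are not channel subunits, among which *Trpc4ap* has such a mean, it was 60. Keeping every row of a repeated symbol could not change the number, since 0 symbols were repeated. The number at a mean of at least 100, which was 33, became 39 and 27 when the minimum was halved and doubled. The share of the summed level held by the anion channel and anoctamin genes, 56.7% per kilobase of the longest transcript, was 51.8% with the union of exons, 62.1% with the coding length of the GENCODE annotation and 60.1% with no division by length. The leading gene was the same on all 4 scales in the 21 families with more than 1 channel subunit gene (10 families have 1). The order of other genes was not always kept, since *Ano6* ranked 1, 8, 2 and 2 among all of them, and *Lrrc8c* and *Lrrc8d* changed places with the union of exons. No paired analysis was possible because the table holds no values per sample. For the same reason the alternatives that leave out a replicate or change the normalization, filter or tool were not run. Depth per sample is unknown, and levels near the lowest mean of 0.618 rest on a few reads.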

Other observations

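The ion channel genes lie on 20 chromosomes. Chromosome 7 holds 18 of them (18.4%, against 7.41% of the table's genes) and chromosome 11 holds 13 (13.3%, against 7.55%). Of those on chromosome 7, 4 had a mean of at least 100, and on chromosome 8 this held for 6 of 7. Over all chromosomes, that level was reached by 33.7% of the ion channel genes, 50.3% of all genes and 72.9% of protein-coding genes. The share of all genes at that level on each chromosome was not examined.

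Of the 16 pairs of channel subunit genes that follow each other with a gap under 1000000 bases, 6 had means within 3-fold and 7 had means 10-fold or more apart. Other gene pairs were not examined. *Scn2a* and *Scn1a* on chromosome 2 had means of 27.1 and 2.84, and *Clcn5* and *Kcnd1* on chromosome X of 4625 and 43.0. *Kcnq1ot1*, the long antisense RNA within the *Kcnq1* locus, had a mean of 657 and is no channel gene.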
